A study of Mus musculus with 8 samples.

Results

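The genes described here are 40 interferon-stimulated genes, comprising antiviral effectors, interferon-inducible GTPases, signalling factors and chemokines. They were chosen by name, with earlier results of these data known, and each was read through the probe set that names it alone. Where a gene had several such probe sets, the brightest on average over the 8 arrays stood for it. Of the 40 genes, 36 were measured (51 probe sets), out of 12393 genes on the array. *Isg15*, the ubiquitin-like modifier, has 1 probe set, which it shares with a second symbol, and *Ifi44*, *Ddx58* and *Xaf1* had no probe set of that symbol, so these 4 genes have no value.

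CD11b+Gr-1+ immature myeloid cells were sorted from the spleens of 4 *Tff2*-/- male mice on a C57BL/6 background, aged 16 weeks, which had drunk 3% dextran sodium sulfate for 5 days and were killed 14 days later. Each mouse gave cells to both kinds of culture, 1 with GM-CSF (Csf2, 5 nM) plus 3 µM recombinant mouse TFF2 (rTFF2) and 1 with GM-CSF alone, kept for 7 days each. Both groups therefore lack endogenous *Tff2*, carry the same colitis history and received GM-CSF. One array was made from each culture, 4 with rTFF2 and 4 with GM-CSF alone, and the comparison asks which genes responded to rTFF2 within the cells of a mouse. Values are deposited GCRMA signals on a log2 scale, so that a difference of 1 is a 2-fold change in signal. Adjusted p-values are from limma with mouse as a block and Benjamini-Hochberg adjustment over 22626 probe sets.

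Interferons are cytokines, and those of type I are released by cells that sense viral or other foreign nucleic acid. Type I interferons signal through *Ifnar1* and *Ifnar2* to a transcription factor complex that includes STAT2 and IRF9 and binds the interferon-stimulated response element (ISRE). Interferon-gamma signals through *Ifngr1* and *Ifngr2*, and many of its targets carry a gamma-activated sequence (GAS). The induced genes include enzymes that attack viral RNA, GTPases that assemble on membranes around intracellular pathogens, and factors that amplify or end the response. Myeloid cells respond to both kinds of interferon.

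For a view of the upstream sequence, the 250 bases before the RefSeq start site were searched on both strands for GAAANNGAAA (ISRE) and TTCNNNGAA (GAS). The RefSeq promoter table (GRCm38.p6) matched 28 of the 36 measured genes. The ISRE letters were found in 13 of 28, against 936 of 27025 genes in the table (3.46%), and the GAS letters in 7 of 28, against 2197 of 27025 (8.13%). The 4 GTPase genes in the table all held the ISRE letters, and their windows are printed because their signals differed in direction with rTFF2. *Irf1*, the transcription factor, is printed for its GAS letters and *Oas1a* as an effector. Each is written 5′ to 3′ on the strand of the gene, and capitals mark the match, which is on the opposite strand of the gene in *Gbp3* and *Gbp2*.
Gbp3 (chr3:142559964-142560043, + strand): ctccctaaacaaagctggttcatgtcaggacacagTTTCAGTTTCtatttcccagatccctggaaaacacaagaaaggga
Gbp2 (chr3:142620569-142620648, + strand): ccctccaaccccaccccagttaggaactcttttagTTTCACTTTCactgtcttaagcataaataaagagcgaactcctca
Igtp (chr11:58199487-58199555, + strand): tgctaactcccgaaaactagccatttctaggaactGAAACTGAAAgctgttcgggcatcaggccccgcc
Irgm1 (chr11:48871421-48871485, - strand): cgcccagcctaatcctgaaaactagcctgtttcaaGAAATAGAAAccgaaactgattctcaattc
Irf1 (chr11:53769889-53769967, + strand): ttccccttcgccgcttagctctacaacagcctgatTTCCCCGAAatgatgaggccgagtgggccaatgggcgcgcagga
Oas1a (chr5:120907526-120907580, - strand): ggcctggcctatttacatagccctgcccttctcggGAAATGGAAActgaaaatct
The match lies 45 to 36 bases before the start in *Gbp3*, 59 to 50 in *Gbp2*, 34 to 25 in *Igtp*, 30 to 21 in *Irgm1*, 90 to 82 in *Irf1* and 20 to 11 in *Oas1a*. In *Gbp3*, *Irgm1* and *Oas1a* a second ISRE match overlaps the one in capitals, and in *Igtp* a GAS match lies 45 to 37 bases before the start. The ISRE letters were in the promoters of all 4 genes with lower signal that the table held (*Gbp2*, *Gbp3*, *Ifit3*, *Stat2*), in 3 of 7 with higher signal and in 6 of 17 that did not pass the test. *Mx1* and *Usp18*, which also had lower signal, were not in the promoter table. The GAS letters were in 0 of the 4 lower genes, 3 of the 7 higher ones and 4 of the 17 others. A link between these letters and the direction of change was not tested.

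Array medians ran from 4.09 to 4.20, and correlations between arrays from 0.985 to 0.998. The medians averaged 4.16 ± 0.03 in rTFF2 cultures and 4.11 ± 0.01 in GM-CSF cultures (SD, n = 4 each). They were higher with rTFF2 in 4 of 4 mice. The *Tff2* signal was 2.28 ± 0.04 in rTFF2 cultures and 2.45 ± 0.11 in GM-CSF cultures (SD, n = 4 each), under background on all 8 arrays, and whether this probe set covers the deleted part is not given in the sources used here. Of 12 listed myeloid markers 9 were measured, and all 9, among them *Itgam*, which encodes CD11b, were above background on all arrays. With rTFF2, 8 of the 9 were higher in 4 of 4 mice, and 4 passed as higher and 0 as lower. Of all genes above background on at least 4 arrays, 23.5% passed as higher. A background level of 4.52 was set from 48 measured genes of other tissues. It rests in part on 3 bright ones, *Mbp*, *Afp* and *Cela1*, without which it would be 2.87. At 4.52, 23 of the 36 genes were above background on at least 4 arrays and 11 were under it on all 8. At 2.87, 30 were above it on at least 4 arrays.

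With rTFF2, 17 of the 36 genes passed the test, 11 higher and 6 lower (47.2%). Over all genes 27.7% passed, 14.5% higher and 13.3% lower. Among the 23 genes above background, 14 passed, 10 higher and 4 lower, beside 41.9% of all genes above background (23.5% higher and 18.5% lower). A gene can meet this filter through a single group, so the filter is not independent of the comparison. *Oas2* met it with 4 rTFF2 arrays and 0 GM-CSF arrays. Of the 36 genes, 23 had the same direction in 4 of 4 mice, beside 46.5% of all genes. The groups did not overlap for 12 of the 36 genes (27.4% over all genes). The median log2 fold change of the 36 was 0.05, against -0.03 over all genes, and its members went in both directions. The largest changes were falls. Of the 17, 3 were lower by more than 2-fold (*Gbp3*, *Mx1*, *Gbp2*) and 1 was higher by more than 2-fold (*Rtp4*), and 4.37% of all genes passed with a change of that size, 2.08% as lower ones.

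**Figure D1:**
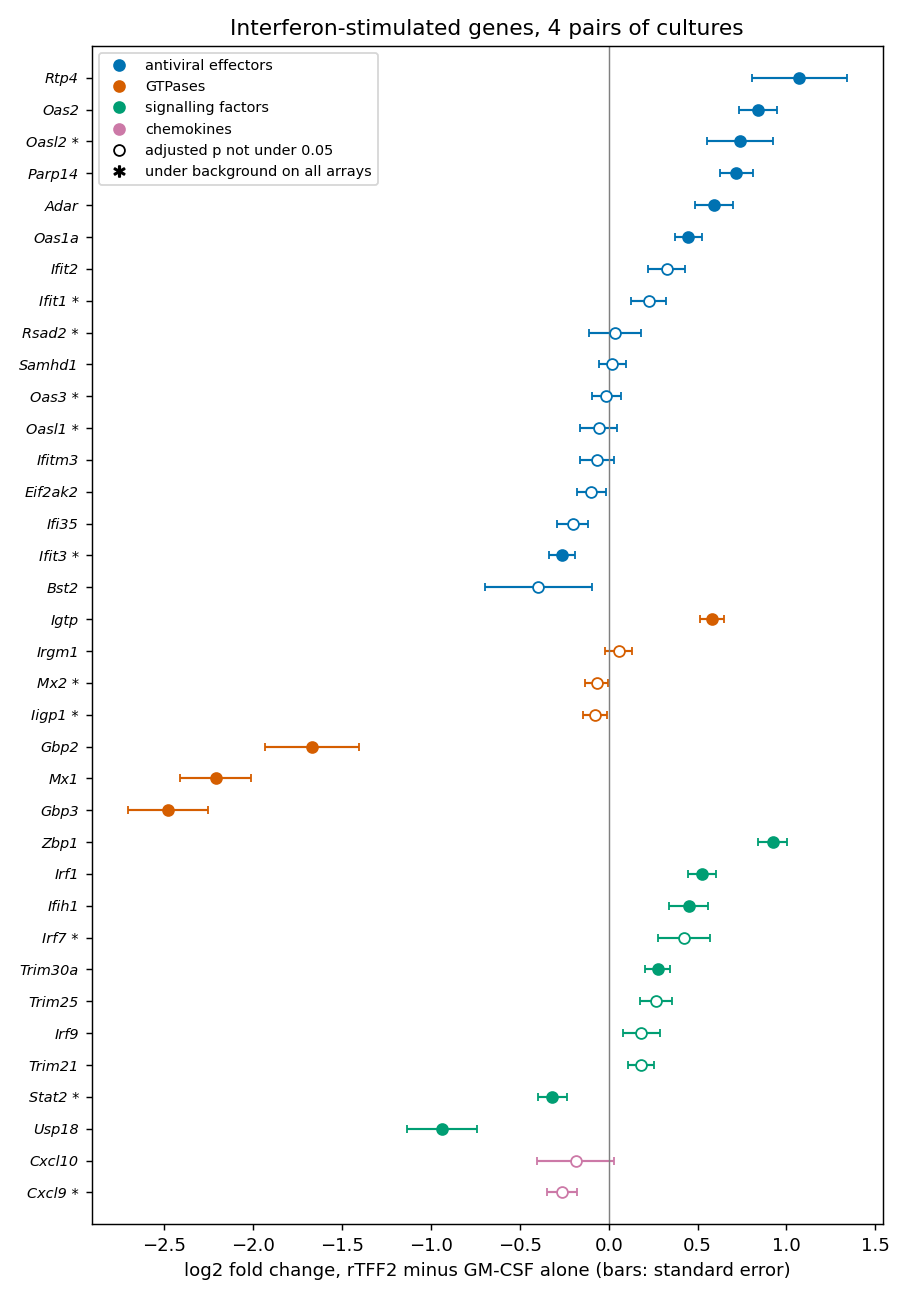
Log2 fold change of the 36 measured genes, rTFF2 minus GM-CSF alone, with its standard error, grouped by role and ordered within each role (n = 4 pairs of cultures). Filled points passed an adjusted p of 0.05, and a star marks the 11 genes under background on all arrays; *Gbp3*, *Mx1* and *Gbp2* lie farthest to the left, and *Rtp4* and *Zbp1* farthest to the right.

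Among the GTPases, 3 of 7 fell with rTFF2 and 1 rose. Thus 57.1% of the 7 passed, beside 27.7% of all genes. Of the 5 GTPase genes above background on at least 4 arrays 4 passed, beside 41.9% of all such genes. *Gbp3*, a guanylate-binding protein gene, had signals of 5.78, 6.55, 6.13 and 6.26 in the rTFF2 cultures of mice 1 to 4, against 8.75, 8.06, 8.92 and 8.92 in their GM-CSF cultures. The groups did not overlap, and signal was 5.59-fold lower with rTFF2 (log2 fold change -2.48, SE 0.23, adjusted p = 0.0006). *Gbp2*, of the same family, had 7.07, 7.50, 7.75 and 7.67 with rTFF2, against 9.18, 7.99, 9.74 and 9.75 with GM-CSF alone. It was 3.18-fold lower (log2 fold change -1.67, SE 0.26, adjusted p = 0.0045), with the smallest difference in mouse 2, at -0.49, and differences from -2.11 to -1.99 in the other mice. The probe set used for *Gbp2* is of a kind that can bind related transcripts. Its other probe set gave a log2 fold change of -1.96 (adjusted p = 0.0019).

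*Mx1* encodes a dynamin-like GTPase that blocks influenza virus, and laboratory strains such as C57BL/6 carry a defective allele of it. Its signals were 4.15, 4.02, 4.94 and 5.06 with rTFF2, against 7.16, 6.28, 6.68 and 6.89 with GM-CSF alone. The lowest GM-CSF culture thus lay above the highest rTFF2 culture, and 2 of the 4 rTFF2 arrays were under background while all GM-CSF arrays were above it. With signals under background set to that level, *Mx1* was at least 3.98-fold lower with rTFF2, and the fit on the signals as deposited gave a log2 fold change of -2.21 (SE 0.20, adjusted p = 0.00059). *Igtp*, an immunity-related GTPase, went the other way, with 6.17, 6.38, 6.40 and 6.30 with rTFF2, against 5.66, 5.85, 5.74 and 5.66 with GM-CSF alone. It was 1.50-fold higher without overlap (log2 fold change 0.58, SE 0.07, adjusted p = 0.0015).

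*Irgm1*, a regulator of the immunity-related GTPases, had 6.84, 7.25, 6.77 and 6.79 with rTFF2, against 6.83, 7.22, 6.54 and 6.84 with GM-CSF alone. In both groups mouse 2 was the highest, and the difference between groups was 0.06 (SE 0.08, adjusted p = 0.64). *Mx2* and *Iigp1* were under background on all arrays, with means of 2.01 and 2.29 in rTFF2 cultures and 2.08 and 2.37 in GM-CSF cultures, and did not pass. When the *Actb* 3′ to 5′ difference, a measure of RNA quality, was added to the fit, *Mx1* and *Igtp* no longer passed. Their log2 fold changes there were -1.86 and 0.67 (adjusted p = 0.0506 and 0.0504), while *Gbp2* and *Gbp3* still passed. The *Actb* difference did not overlap between the groups, so that fit separates it poorly from rTFF2. Why the calls were lost was not tested.

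**Figure D2:**
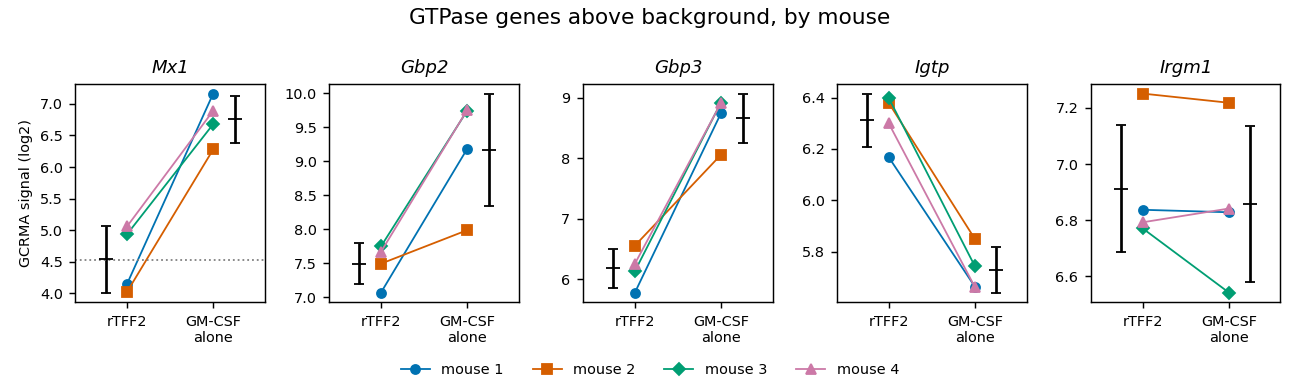
GCRMA signal (log2) of the 5 GTPase genes above background on at least 4 arrays, rTFF2 culture left and GM-CSF culture right, with a line for each of the 4 mice, black bars for mean and SD, and a dotted line to mark background (4.52) where it falls in the range. *Mx1*, *Gbp2* and *Gbp3* are lower with rTFF2 in all 4 mice, *Igtp* is higher in all 4, and the lines of *Irgm1* are nearly level; the scales differ between panels.

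Among the antiviral effectors, 17 of 20 were measured, 6 passed as higher (*Oas1a*, *Oas2*, *Oasl2*, *Rtp4*, *Adar*, *Parp14*) and 1 as lower (*Ifit3*). Thus 41.2% of the 17 passed, beside 27.7% of all genes. Of the 10 effectors above background on at least 4 arrays 5 passed, beside 41.9% of all such genes. Among these 5, *Oas2* had 0 and *Adar* 1 of the GM-CSF arrays above background. The OAS enzymes make an oligoadenylate that activates an RNA-degrading nuclease. *Oas1a* had 7.93, 8.25, 7.95 and 7.81 with rTFF2, against 7.48, 7.99, 7.40 and 7.27 with GM-CSF alone. Mouse 2 had the highest culture of both groups, so the groups overlapped, while within each mouse the rTFF2 culture was the higher one. The rise was 1.36-fold (log2 fold change 0.45, SE 0.08, adjusted p = 0.0064), and it passed only with the mouse in the fit (adjusted p = 0.073 without it).

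*Oas2* had 4.78, 4.85, 4.74 and 4.57 with rTFF2, all just above background, against 3.77, 4.39, 3.73 and 3.69 with GM-CSF alone, all under it. Set against the background level, the rise was at least 1.16-fold. The fit on the signals as deposited gave a log2 fold change of 0.84 (adjusted p = 0.0019). *Oasl2*, an OAS-like gene, averaged 4.06 ± 0.34 with rTFF2 and 3.32 ± 0.39 with GM-CSF alone (SD, n = 4 each). It was higher in all 4 mice (adjusted p = 0.027), yet it was under background in both groups, so no fold is given, and it no longer passed without mouse 3 (adjusted p = 0.11) or mouse 4 (0.088). *Oas3* and *Oasl1* were under background on all arrays, with means of 2.82 and 2.53 in rTFF2 cultures and 2.83 and 2.58 in GM-CSF cultures, and did not pass.

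*Parp14*, an ADP-ribosyltransferase gene, had 7.90, 7.99, 8.39 and 8.35 with rTFF2, against 7.22, 7.55, 7.50 and 7.51 with GM-CSF alone. The groups did not overlap, and the rise was 1.65-fold (log2 fold change 0.72, SE 0.09, adjusted p = 0.0021). *Adar*, which edits adenosines in double-stranded RNA, had 5.25, 4.98, 4.68 and 4.72 with rTFF2, against 4.27, 4.54, 4.25 and 4.21 with GM-CSF alone. All 4 rTFF2 arrays but only the GM-CSF array of mouse 2 were above background. With signals under background set to that level the rise was at least 1.30-fold (adjusted p = 0.0076, from the fit on the signals as deposited).

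*Rtp4*, which encodes a transporter protein for receptors, had signals of 5.83, 7.27, 6.60 and 6.03 with rTFF2, against 5.20, 6.99, 4.53 and 4.70 with GM-CSF alone. The GM-CSF culture of mouse 2 was above 3 of the 4 rTFF2 cultures, and the differences within mice ran from 0.27 in mouse 2 to 2.07 in mouse 3. The rise was 2.10-fold (log2 fold change 1.07, SE 0.27, adjusted p = 0.025). It did not pass without mouse 3 (adjusted p = 0.056), without mouse 4 (0.096) or without the pairing (0.185), and its other probe set, at 2.60 with rTFF2 and 2.72 with GM-CSF alone, did not pass.

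The remaining effectors showed smaller differences. *Ifit1*, *Ifit3* and *Rsad2*, which bind viral RNA or block viral replication, were under background on all arrays. *Ifit3* averaged 3.02 ± 0.16 with rTFF2 and 3.28 ± 0.15 with GM-CSF alone (SD, n = 4 each). It passed as lower (adjusted p = 0.042) and failed whichever mouse was left out, with adjusted p from 0.066 without mouse 3 to 0.16 without mouse 1. *Ifit2* was higher in 4 of 4 mice by 0.33 on the log2 scale (adjusted p = 0.057) with 1 array above background in each group.

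*Ifitm3*, which blocks viral entry, averaged 13.01 ± 0.20 with rTFF2 and 13.08 ± 0.21 with GM-CSF alone (SD, n = 4 each). *Samhd1*, which depletes nucleotides, averaged 10.52 with rTFF2 and 10.50 with GM-CSF alone, and *Eif2ak2*, the RNA-dependent kinase PKR, averaged 7.01 with rTFF2 and 7.11 with GM-CSF alone. None of these 3 passed, although another *Samhd1* probe set did, with a log2 fold change of 0.34 (adjusted p = 0.015). *Ifi35* was lower in 4 of 4 mice by 0.20 on the log2 scale without passing (adjusted p = 0.14).

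*Bst2*, which encodes the virus-tethering protein tetherin, split the mice. It had 7.59, 8.10, 7.80 and 7.60 with rTFF2, against 8.01, 7.31, 9.19 and 8.18 with GM-CSF alone. The rTFF2 culture was the higher one in mouse 2, by 0.79, and the lower one in the other 3 mice, by -0.41 to -1.38 on the log2 scale. Over the 4 mice the log2 fold change was -0.40 (SE 0.30, adjusted p = 0.385). Leaving out mouse 2 gave -0.79 (adjusted p = 0.029) and leaving out mouse 3 gave -0.07 (adjusted p = 0.89). With the *Actb* difference in the fit it was -1.68 (adjusted p = 0.039), in a fit that separates that difference poorly from rTFF2.

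**Figure D3:**
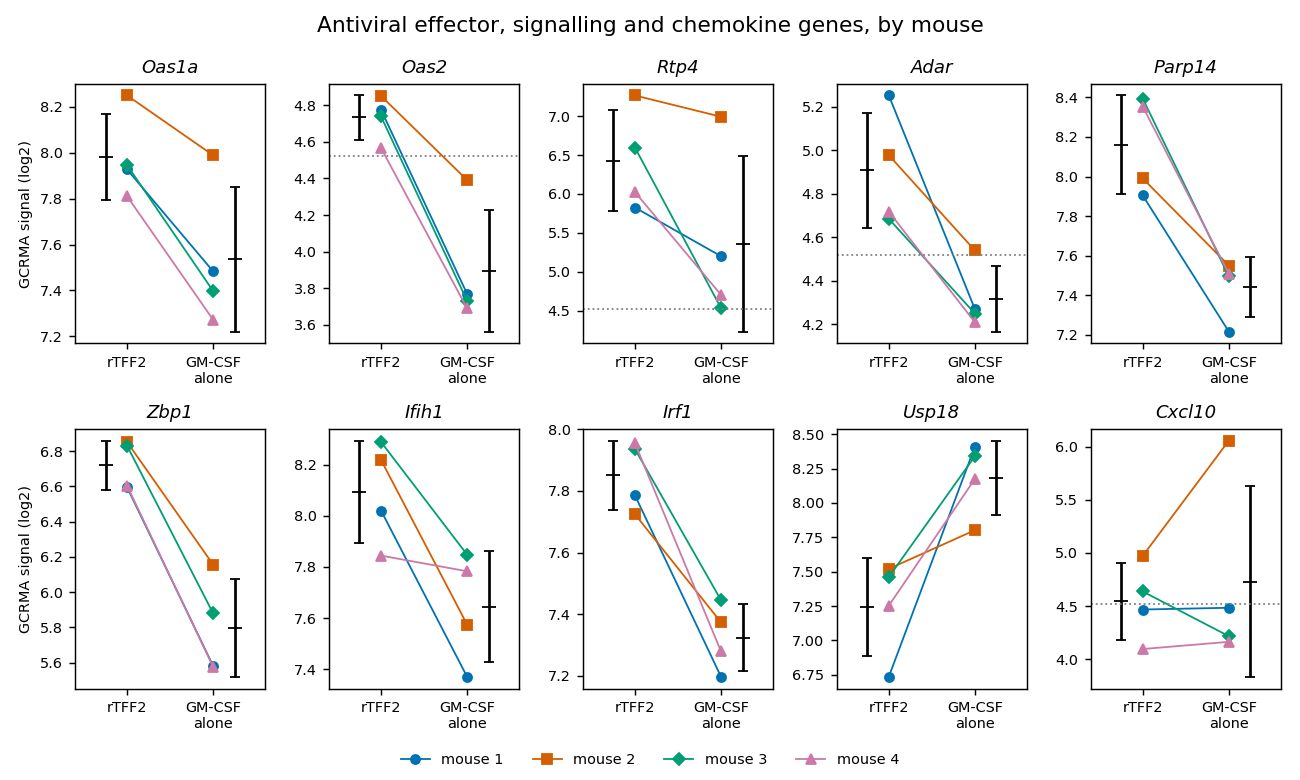
GCRMA signal (log2) of 10 antiviral effector, signalling and chemokine genes, rTFF2 culture left and GM-CSF culture right, with a line for each of the 4 mice, black bars for mean and SD, and a dotted line to mark background (4.52). The lines of *Oas1a* to *Irf1* run downward to the right in every mouse, those of *Usp18* run upward, and the GM-CSF culture of mouse 2 is far above the others for *Cxcl10* (6.06) and *Rtp4* (6.99); the scales differ between panels.

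Among the signalling factors, 10 of 11 were measured, 4 passed as higher (*Zbp1*, *Irf1*, *Ifih1*, *Trim30a*) and 2 as lower (*Usp18*, *Stat2*). Thus 60.0% of the 10 passed, beside 27.7% of all genes. Of the 8 signalling factors above background on at least 4 arrays 5 passed, beside 41.9% of all such genes. Both measured nucleic acid sensors were higher. *Zbp1*, a sensor of Z-form nucleic acid that can start necroptosis, had 6.60, 6.85, 6.83 and 6.60 with rTFF2, against 5.58, 6.16, 5.88 and 5.58 with GM-CSF alone. The groups did not overlap and the rise was 1.90-fold (log2 fold change 0.92, SE 0.08, adjusted p = 0.00055). A second *Zbp1* probe set also passed as higher (adjusted p = 0.0015), but it was under background on all arrays, at 4.30 with rTFF2 and 3.59 with GM-CSF alone.

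*Ifih1*, a cytosolic sensor of long double-stranded RNA, had 8.02, 8.22, 8.29 and 7.84 with rTFF2, against 7.37, 7.57, 7.85 and 7.78 with GM-CSF alone. The difference was 0.06 in mouse 4 and 0.44 to 0.65 in the others, and the log2 fold change was 0.45 (SE 0.11, adjusted p = 0.024). It did not pass without mouse 1 (adjusted p = 0.099), mouse 2 (0.077) or mouse 3 (0.082).

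Of the transcription factors, *Irf1*, a target of both interferon pathways, had 7.79, 7.72, 7.94 and 7.95 with rTFF2, against 7.20, 7.37, 7.45 and 7.28 with GM-CSF alone. It was 1.44-fold higher without overlap (log2 fold change 0.53, SE 0.08, adjusted p = 0.0036). *Irf9*, the DNA-binding subunit of the type I complex, averaged 7.12 ± 0.10 with rTFF2 and 6.93 ± 0.18 with GM-CSF alone (SD, n = 4 each) and did not pass (adjusted p = 0.245, and 0.0496 without mouse 2). *Stat2*, its partner, was under background on all arrays, at 3.54 ± 0.17 with rTFF2 and 3.86 ± 0.29 with GM-CSF alone. It passed as lower (adjusted p = 0.027), as did its other probe set (0.0498), and it failed without mouse 1 (adjusted p = 0.102), mouse 3 (0.0896) or mouse 4 (0.101). *Irf7*, which amplifies type I interferon production, was also under background on all arrays, at 3.74 with rTFF2 and 3.31 with GM-CSF alone (adjusted p = 0.077, and 0.0403 without mouse 1).

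*Usp18*, which removes ISG15 from proteins and limits signalling from the type I receptor, had 6.74, 7.52, 7.46 and 7.25 with rTFF2, against 8.41, 7.80, 8.34 and 8.17 with GM-CSF alone. Every rTFF2 culture was below every GM-CSF culture, and signal was 1.92-fold lower (log2 fold change -0.94, SE 0.20, adjusted p = 0.013). The difference was -0.28 in mouse 2 and -1.67 in mouse 1, and the adjusted p was 0.0521 without mouse 3 and 0.0504 without mouse 4. *Trim30a*, a regulator of NF-kB signalling in mice, was higher in 4 of 4 mice, at 10.09 ± 0.07 with rTFF2 and 9.82 ± 0.10 with GM-CSF alone (SD, n = 4 each). Its adjusted p was 0.029, and 0.12, 0.081 and 0.097 without mice 1, 2 and 3. Its other probe set, above background on all arrays, averaged 9.97 with rTFF2 and 9.90 with GM-CSF alone and did not pass (log2 fold change 0.07, adjusted p = 0.55). *Trim21* and *Trim25*, ubiquitin ligases of antibody and RNA sensing, were higher in 4 of 4 mice by 0.18 and 0.26 on the log2 scale and did not pass (adjusted p = 0.11 and 0.072). Another *Trim25* probe set passed, with 0.31 (adjusted p = 0.035).

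Neither chemokine passed. *Cxcl10*, which attracts activated T cells, had 4.47, 4.97, 4.64 and 4.10 with rTFF2, against 4.48, 6.06, 4.22 and 4.16 with GM-CSF alone. Mouse 2 was the highest in both groups, and its GM-CSF culture alone stood clearly above background there. The log2 fold change was -0.19 over 4 mice (adjusted p = 0.58) and 0.11 without mouse 2 (adjusted p = 0.55). *Cxcl9*, a target of interferon-gamma, was under background on all arrays, at 1.58 with rTFF2 and 1.84 with GM-CSF alone.

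Over the 23 genes above background, the GM-CSF culture of mouse 2 was the highest of its group for 9 genes and the lowest for 10. It was thus at an end of its group for 19 of 23 genes, and it was so for 71.2% of all genes above background. For mice 1, 3 and 4 the GM-CSF culture was at an end for 8, 8 and 11 of the 23, beside 32.5%, 46.8% and 49.6% of all genes above background. The median size of the difference between the cultures of a mouse was 0.35 in mouse 2 and 0.49 to 0.54 in the others. The falls of *Gbp2*, *Gbp3* and *Usp18* were smallest in mouse 2, whereas that of *Mx1* was -2.26 there and -1.74 and -1.83 in mice 3 and 4. Without that mouse the log2 fold changes of *Gbp2* and *Gbp3* were -2.06 and -2.81.

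**Figure D4:**
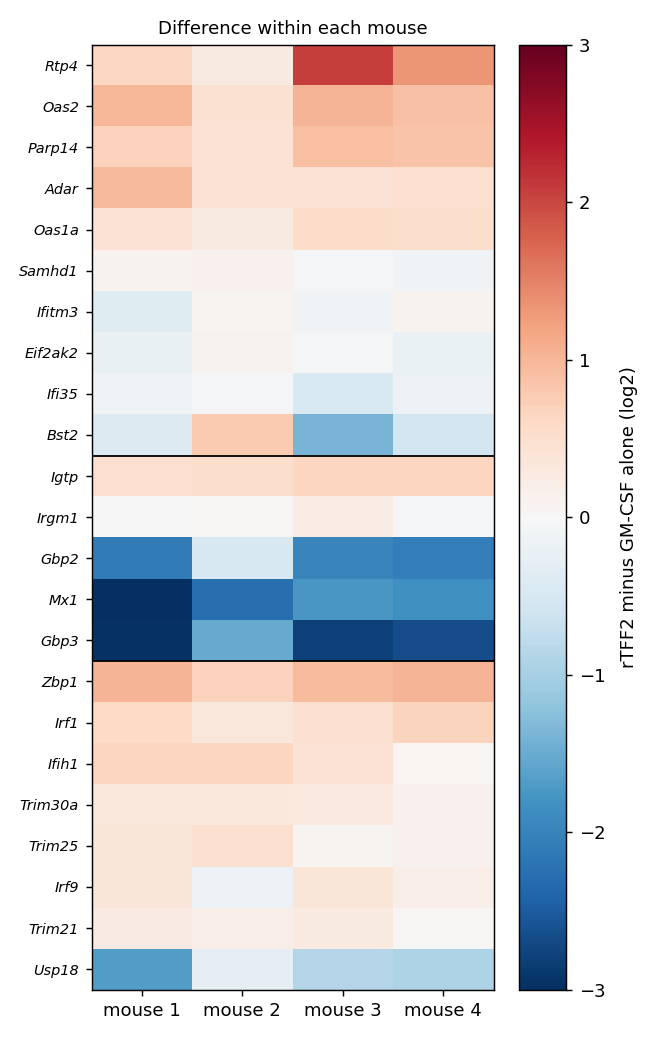
Difference between the rTFF2 and the GM-CSF culture of each mouse (log2, red higher and blue lower with rTFF2) for the 23 genes above background on at least 4 arrays, with lines between antiviral effectors, GTPases and signalling factors. *Gbp2*, *Mx1*, *Gbp3* and *Usp18* are blue in all 4 mice, and *Bst2* is red in mouse 2 and blue in the others.

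The genes around the list were read in the same fit. All 10 measured interferon ligand genes, *Ifnb1* and *Ifng* among them, were under background on all arrays, with 1 past the test (*Ifnz*, at 3.23 with rTFF2 and 2.90 with GM-CSF alone). Of 12 genes of the receptors and proximal signalling, 8 rose and 2 fell, with a median log2 fold change of 0.66. All 4 receptor chains rose. *Ifngr1* averaged 10.27 ± 0.09 with rTFF2 and 9.12 ± 0.10 with GM-CSF alone (SD, n = 4 each), a 2.22-fold rise (adjusted p = 0.00014). The log2 fold changes were 0.88 for *Ifnar1*, 0.85 for *Ifngr2* and 0.67 for *Ifnar2* (adjusted p = 0.0033, 0.00047 and 0.00503). The feedback inhibitors *Socs1* and *Socs3* passed as higher too, *Socs3* with a log2 fold change of 0.81 and *Socs1* at 4.27 with rTFF2, where 1 of 4 arrays was above background, and 3.46 with GM-CSF alone, where none was, and the receptor-bound kinases *Jak2* and *Tyk2* fell by 0.47 and 0.35 on the log2 scale.

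Of 6 interferon regulatory factor genes outside the list, 1 rose (*Irf3*, log2 fold change 0.31) and 2 fell. *Irf4*, a factor of dendritic and lymphoid cells, averaged 7.59 ± 0.43 with rTFF2 and 9.00 ± 0.55 with GM-CSF alone (SD, n = 4 each; log2 fold change -1.41, adjusted p = 0.00036), and *Irf5* averaged 9.10 ± 0.20 with rTFF2 and 9.92 ± 0.18 with GM-CSF alone (log2 fold change -0.82, adjusted p = 0.00044). Of 12 sensing and adaptor genes, 6 rose and 1 fell. *Tlr7*, an endosomal sensor of single-stranded RNA, averaged 8.64 ± 0.22 with rTFF2 and 7.04 ± 0.15 with GM-CSF alone (SD, n = 4 each), a 3.02-fold rise (adjusted p = 0.00014), and the kinase gene *Ikbke* rose by 0.85. *Mavs*, the adaptor of the RNA sensors, was the 1 gene that fell (log2 fold change -0.49, adjusted p = 0.0032).

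Of 38 other type I interferon targets, 15 rose and 3 fell (median log2 fold change 0.28), with the smallest adjusted p for *Slfn8* (log2 fold change 1.18), *Ccl7* (2.97), *Ccl2* (1.38) and *Ddx60* (1.14). The GM-CSF arrays above background were 2 of 4 for *Ccl7* and 1 of 4 for *Ddx60*, and with signals under it set to that level the rises were at least 7.03-fold and 1.97-fold. *Ccl2* and *Ccl7* are monocyte chemokines that other signals induce too. Of 25 other interferon-gamma targets, 7 rose and 6 fell (median 0.10). *Ciita*, the master regulator of MHC class II genes, averaged 4.16 ± 0.64 with rTFF2 and 7.97 ± 0.39 with GM-CSF alone (SD, n = 4 each; adjusted p = 0.00051). Only 1 of its 4 rTFF2 arrays was above background, against all 4 GM-CSF arrays, and with signals under background set to that level it was at least 10.1-fold lower with rTFF2. In contrast, *Cd274*, which encodes PD-L1, rose by 0.94 (adjusted p = 0.00081). The GTPase gene *Gbp6* passed as higher under background on all arrays, at 3.60 with rTFF2 and 2.26 with GM-CSF alone. Each of these pathway counts stands beside the 27.7% of all genes that passed, 14.5% as higher and 13.3% as lower. Of all genes above background on at least 4 arrays, 41.9% passed. Among such genes, 9 of 11 passed for receptors and proximal signalling, 3 of 5 for the regulatory factors and 6 of 9 for sensing and adaptors. For the type I targets it was 16 of 29, and for the interferon-gamma targets 10 of 19.

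**Figure D5:**
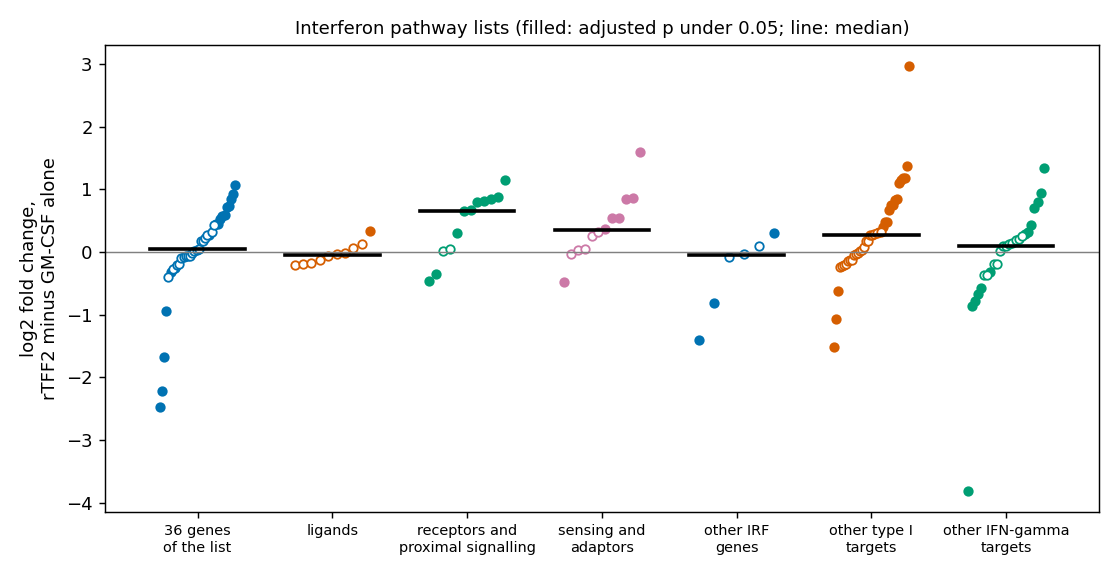
Log2 fold change (rTFF2 minus GM-CSF alone) for genes measured in the list of 36 and in 6 lists of interferon pathway genes; filled points passed an adjusted p of 0.05 and the black line is the median. The medians run from -0.05 for the other interferon regulatory factors to 0.66 for receptors and proximal signalling, and the lowest point, at -3.81, is *Ciita*, for which 3 of the 4 rTFF2 arrays were under background.

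Markers of other cell types moved with the groups, and their part in these results was not tested. Of 15 measured dendritic cell markers 13 were lower with rTFF2 and none higher, and the log2 of their summed signal was 13.0 to 13.5 in rTFF2 cultures and 14.8 to 15.2 in GM-CSF cultures. The other 2, *Flt3* and *Xcr1*, were under background on all arrays. Of 10 basophil and mast cell markers 7 were higher, with a summed signal of 12.1 to 12.9 in rTFF2 cultures and 7.69 to 9.00 in GM-CSF cultures, while the mast cell proteases *Tpsab1*, *Cma1* and *Mcpt4* were under background on all arrays. In whole cultures, fewer cells of a type and less RNA per cell cannot be told apart. Plasmacytoid dendritic cell markers, from cells known for interferon production, overlapped in summed signal, at 10.4 to 10.7 with rTFF2 and 10.0 to 11.0 with GM-CSF alone, with 1 of 14 higher and 5 lower. Of these 14, 7 were under background on all arrays, and of the 6 above it on at least 4 arrays 2 passed. Of 21 T and NK cell markers 19, and of 11 B cell markers 10, were under background on all arrays. The *Actb* 3′ to 5′ difference was 0.698 ± 0.046 in rTFF2 cultures and 0.527 ± 0.089 in GM-CSF cultures (SD, n = 4 each), higher with rTFF2 in 4 of 4 mice (two-sided exact sign-flip permutation p = 0.125, the smallest that 4 pairs allow). With the *Actb* difference in the fit, 6 of the genes passed as higher and 3 as lower. Of the 17 genes that passed without it, 9 were lost, and *Bst2* was gained as a lower one. The *Actb* difference did not overlap between the groups, so this fit separates it poorly from rTFF2.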

How the data were processed

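RNA of 8 cultures was hybridised to Affymetrix mouse arrays, 1 array per culture. The authors deposited log2 signals computed with GCRMA; versions given by the submitters' processing notes are 2.30.0 for GCRMA and 1.36.0 for affy. The genome build is not given in the sources used here, and scanner output was not used here. The values cover 22690 probe sets, of which 64 control probe sets were left out of the tests. In the platform annotation 20380 of the tested probe sets had a single symbol, 691 had several and 1555 had none.

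Groups and mouse numbers came from the sample labels. The sample titles number the cultures of each group from 1 to 4, and the methods state that sorted cells were split, so equal numbers were taken as pairs. Deviations from group means correlated at 0.03 to 0.56 between cultures of a mouse and at -0.56 to 0.36 between mice (10696 probe sets above background). For mice 2 and 4 the rTFF2 culture correlated most with the GM-CSF culture of its own mouse (0.56 and 0.41). For mouse 1 it did so at 0.03, against 0.17 with the GM-CSF culture of mouse 2. For mouse 3 it did so at 0.34, against 0.36 with that of mouse 4. The values were fitted in R 4.3.3 with limma 3.58.1 (lmFit, eBayes) with mouse as a block, Benjamini-Hochberg adjustment over 22626 probe sets and a threshold of 0.05. The test was tried on simulated data first. The number of arrays limits the precision.

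The background level is the 95th percentile of group means of 48 measured genes of other tissues. Named genes are all members and, from each other list, those with the smallest adjusted p (up to 4); others were named after their values were seen. The gene list and the other lists were chosen with earlier results of these data known. Alternatives were the fit without the block, leaving out each mouse, a filter on dim probe sets, median centring, quantile normalization, array weights, a trended robust prior, 32 added to linear signals (the offset), the *Actb* difference as a covariate, means of probe sets and a threshold of 0.01. The labels give the GM-CSF dose used above, and the methods give a different one.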

Additional observations from a re-analysis of the deposited data

Results flagged for a closer look

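The 72 tested groups of 4 cultures were read on the same 8 arrays, so they are not independent. In independent groups chance would give about 1 in 20 (3.6), and the count here cannot be weighed against that. Of the 72 groups, 9 had a culture whose gap to the next was a large part of the whole range. Mouse 2 accounts for 5 of them, which were its GM-CSF cultures for *Oas2* (4.39, the others 3.69 to 3.77), *Cxcl10* (6.06, the others 4.16 to 4.48) and *Ifitm3* (12.76, the others 13.15 to 13.21), and its rTFF2 cultures for *Irgm1* (7.25, the others 6.77 to 6.84) and *Trim30a* (10.20, the others 10.05 to 10.07). Mouse 4 stood apart with rTFF2 for *Stat2* (3.80, the others 3.43 to 3.48) and *Cxcl9* (1.76, the others 1.50 to 1.54), both under background. Mouse 1 was low with GM-CSF alone for *Parp14* (7.22, the others 7.50 to 7.55), and mouse 3 was high with GM-CSF alone for *Cxcl9* (1.99, the others 1.78 to 1.79).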

How the results depend on the processing

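No direction of a passing gene turned under any alternative. *Oas2*, *Irf1*, *Gbp2*, *Gbp3*, *Parp14* and *Zbp1* passed 0.05 under every alternative; *Ifit3*, *Stat2*, *Trim30a*, *Ifih1*, *Rtp4*, *Oasl2* and *Usp18* failed under 4 to 7 of them. Of single-gene results, 431 stayed on their side of the threshold, 49 lost it and 11 gained it. Without the replicate block 13 of the 17 calls remained (9 higher and 4 lower; 2636 and 2291 probe sets against 3095 and 2716 with the block), with 0 lower effectors, 1 lower signalling factor, 1 lower proximal gene and 0 higher interferon regulatory factors. Leaving out a mouse, which removes both of its cultures, gave 7 to 10 higher and 3 to 6 lower genes. These totals include genes that newly passed: *Irf7* without mouse 1, *Irf9* and *Bst2* without mouse 2 and *Cxcl9* without mouse 4. Of the 17 calls, 4, 3, 7 and 5 were lost without mice 1, 2, 3 and 4. These fits gave 0 to 1 lower effectors and 2 to 4 higher and 0 to 2 lower signalling factors. They also gave 1 to 2 lower proximal genes and 0 to 1 higher regulatory factors. Over all probe sets 2016 to 2708 were higher and 1593 to 2298 lower, fewest without mouse 1. Without mouse 3 it was 1637 lower probe sets, with 7 higher and 3 lower genes. The offset of 32 left 7 higher and 3 lower genes, with 3 higher and 0 lower effectors, 0 lower signalling factors and 1 lower proximal gene.

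With the *Actb* covariate and the replicate block, 6 genes were higher and 3 lower. Of the 17 calls 9 were lost, and *Bst2* was gained as a lower gene. This fit gave 0 higher GTPases, 2 higher and 0 lower signalling factors, and 3 higher and 0 lower proximal genes. It gave 0 higher regulatory factors, 2 higher and 0 lower sensing genes, and 6 higher and 1 lower type I targets. There were 0 higher interferon-gamma targets, and 829 higher and 759 lower probe sets. The *Actb* difference did not overlap between the groups, so this fit separates it poorly from rTFF2, and the cause was not tested. At 0.01, 7 genes were higher and 3 lower, with 0 lower effectors, 2 higher and 0 lower signalling factors, 1 lower proximal gene, 0 higher regulatory factors, and 1640 higher and 1266 lower probe sets. The filter on dim probe sets, which tests fewer genes, left 0 lower effectors, 1 lower signalling factor and 4 higher interferon-gamma targets, with a median of 0.18 over the 23 genes kept. With the lower background level, an alternative chosen after seeing the data that adjusts the same p-values over the probe sets kept, 12 were higher and 6 lower. Median centring gave 2587 higher and 3535 lower probe sets (3095 and 2716 as deposited), 5 lower type I targets and 0 higher regulatory factors, and a median of -0.002 for the list; quantile normalization (2777 higher and 2831 lower) and the trended prior also gave 0 higher regulatory factors.

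For genes under background in both groups a difference gives no fold, and 4 arrays a group limit what small differences can pass.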
